A study of Mus musculus with 12 samples.

Results

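The imprinted growth genes described here are 10 mouse genes, chosen by symbol: H19, Igf2, Dlk1, Meg3, Cdkn1c, Peg3, Plagl1, Mest, Grb10 and Ndn. All 10 were found among the 46078 gene IDs of the table, and all 10 were among the 17496 genes with a mean of at least 10 normalized counts, which were tested. Their RNA was sequenced from hippocampal tissue of C57BL/6 mice aged 25 postnatal days, in 12 libraries. Mutant animals were heterozygous for the Chd8 frameshift allele Asn2373LysfsX2, and their controls were wild type (WT). The 4 groups were mutant males, WT males, mutant females and WT females, with 3 libraries each. Whether libraries of 1 group are separate animals is not stated in the labels, and p-values therefore reflect spread among libraries that may be technical. The questions put to the genes were which of them followed connective tissue content, with H19 and Igf2 named as candidates, which followed neuronal content, with Meg3, Ndn and Peg3 named, and whether any differed with the Chd8 genotype.

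An imprinted gene is expressed mainly from the copy inherited from one parent, under the control of a region whose DNA methylation differs between the maternal and the paternal chromosome. Many genes of this kind set the growth of the embryo and placenta and are turned down after birth, while some remain active in the brain. In the brain after birth, Igf2 is known as a product of the choroid plexus and of the leptomeninges and vessels, whereas Meg3, Ndn and Peg3 are known as genes of neurons. CHD8, a chromatin remodelling enzyme, has been described in cultured cells as a partner of CTCF, the factor that insulates Igf2 from its enhancers at the methylated region upstream of H19. These libraries measure total RNA of both alleles together and carry no allelic information.

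The host transcripts of this set also carry microRNAs, and 9 mature microRNAs from RefSeq (build GRCm38.p6) were matched to 4 hosts, H19, Igf2, Meg3 and Mest. Those of the H19 and Igf2 hosts are shown because these hosts were the members whose levels are set against non-neuronal tissue below. Each is written 5′ to 3′ with the seed, bases 2 to 8, in capitals. The miR-675 pair lies within the H19 transcript and the miR-483 pair within an Igf2 intron, both on the minus strand of chromosome 7.
miR-675-5p: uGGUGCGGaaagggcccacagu
miR-675-3p: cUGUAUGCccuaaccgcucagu
miR-483-5p: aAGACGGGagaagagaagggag
miR-483-3p: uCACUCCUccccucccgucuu
The 9 seeds were all different, so no seed family joined the hosts. Read counts of the hairpin genes were near nothing in these libraries: over all 12, Mir675 had 0 reads, Mir770 in Meg3 had 0, Mir483 had 5 and Mir335 in Mest had 15. Mir675 and Mir770 overlap exons of H19 and Meg3 on the same strand, so reads there fall in both genes. Their counts of 0 therefore give no level of these hairpins. The library kit is not one for small RNA, and the levels of the mature microRNAs were not measured.

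Promoter windows, 250 bases before to 50 after an annotated start, were matched in RefSeq (GRCm38.p6) for 8 of the 10 members and gave 15 windows. Of the 15, 3 are printed 5′ to 3′ because their genes mark contrasts within the set: Igf2 for a level that moved with marker scores, Peg3 for the smallest variation between libraries, and Ndn for wide variation with no slope that passed on any score. The Igf2 window is the third of its 4 starts, the one with the most CpG dinucleotides. It lies on the minus strand at chr7:142658755-142659054 and holds 24 CpG. The Peg3 window, at chr7:6730370-6730669 on the minus strand, holds 13 CpG. The Ndn window, at chr7:62348027-62348326 on the plus strand, holds 11 CpG. The median over 32851 promoter windows was 7 CpG. Capitals mark the match to GGGGCCCC in Peg3, a core sequence described for PLAGL1, itself a member of the set.
Igf2: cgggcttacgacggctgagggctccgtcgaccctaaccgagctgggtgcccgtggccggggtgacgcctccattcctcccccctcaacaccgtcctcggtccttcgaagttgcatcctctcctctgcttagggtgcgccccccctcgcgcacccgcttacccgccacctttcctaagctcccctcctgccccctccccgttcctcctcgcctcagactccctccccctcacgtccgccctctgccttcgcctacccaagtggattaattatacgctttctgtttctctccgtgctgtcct
Peg3: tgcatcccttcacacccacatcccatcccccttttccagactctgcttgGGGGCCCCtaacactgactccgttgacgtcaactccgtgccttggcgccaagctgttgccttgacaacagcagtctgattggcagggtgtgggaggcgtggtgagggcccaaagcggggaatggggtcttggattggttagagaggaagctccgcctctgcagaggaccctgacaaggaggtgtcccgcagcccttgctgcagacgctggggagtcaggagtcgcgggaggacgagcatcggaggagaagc
Ndn: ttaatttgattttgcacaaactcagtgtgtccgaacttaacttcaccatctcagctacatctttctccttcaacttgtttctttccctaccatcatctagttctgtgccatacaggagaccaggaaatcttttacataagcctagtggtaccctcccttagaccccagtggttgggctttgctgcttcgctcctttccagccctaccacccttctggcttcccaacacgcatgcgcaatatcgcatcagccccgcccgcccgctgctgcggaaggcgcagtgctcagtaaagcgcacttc
The motifs searched on both strands were GGGGCCCC for PLAGL1, the core of the CTCF motif, GCCATNTT for YY1 and TATAAA for the TATA box, and the shares of the 32851 windows that held them were 1.08% for PLAGL1, 0.122% for CTCF, 6.05% for YY1 and 13.6% for the TATA box. Among the 15 member windows, Peg3 held the PLAGL1 letters and the first of 2 Meg3 windows held overlapping TATA box matches on both strands. The other 13 windows held none of the 4 motifs, which says only that these letters are not in these windows.

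Per kilobase of exon, the only scale on which genes are compared here, the order of levels ran from Meg3 down to H19. Mean normalized counts per kilobase over the 12 libraries were 5852 ± 686 for Meg3 (SD, n = 12 for each gene). They were 1169 ± 476 for Igf2, 1159 ± 322 for Ndn and 729 ± 40.1 for Peg3. Igf2 and Ndn, neighbours in this order, differed by less than their spread. Next came Cdkn1c at 188 ± 78.4, Mest at 181 ± 21.98 and Plagl1 at 145 ± 32.4 normalized counts per kilobase, where Cdkn1c and Mest also lay within their spread of each other. Grb10 had 96.2 ± 10.97, Dlk1 34.3 ± 19.99 and H19 11.05 ± 10.3. The H19 level rested on 7 to 72 reads a library.

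**Figure D1:**
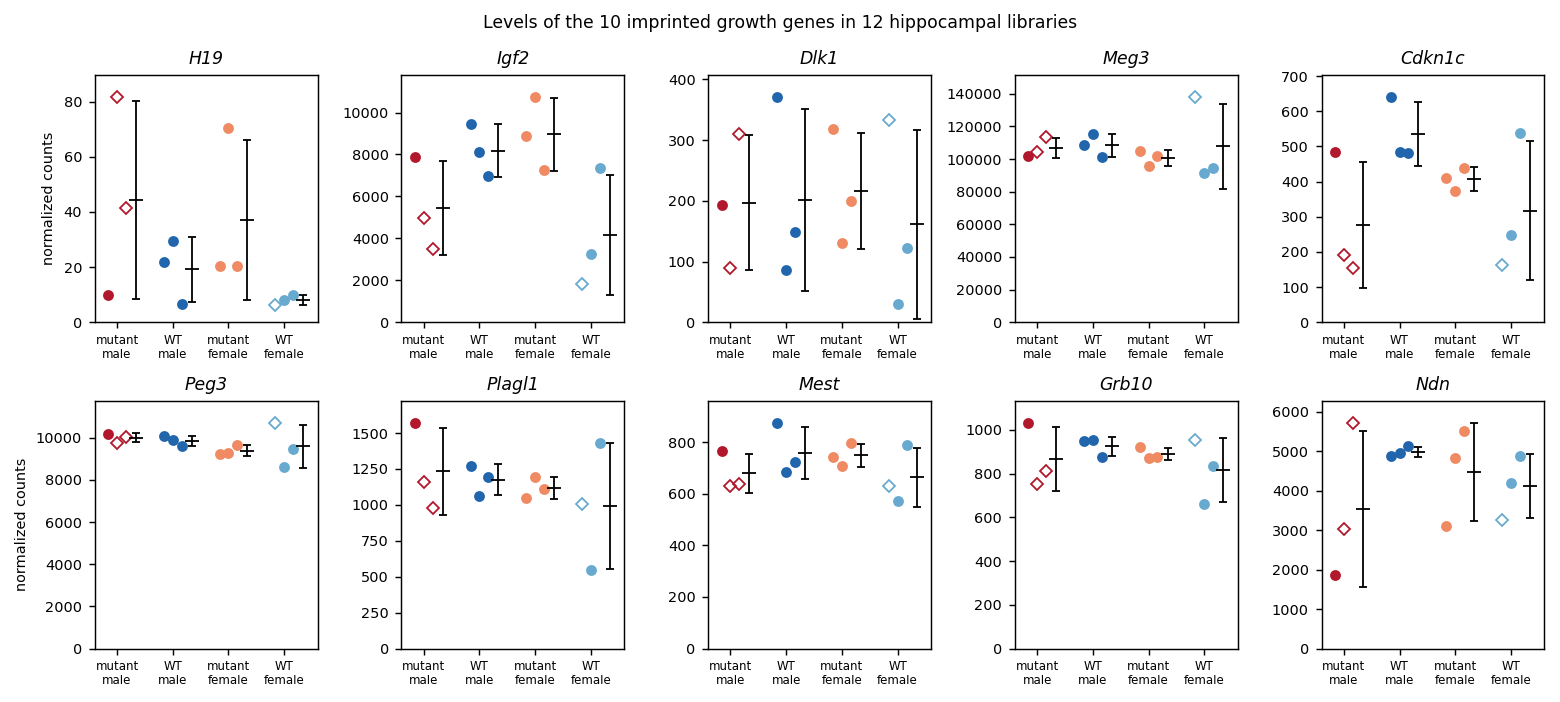
Normalized counts of the 10 members (vertical axes, each from 0) in the 12 libraries by group; points are libraries, open diamonds the 3 libraries low in choroid plexus markers, and bars the group mean ± SD of 3 libraries. Peg3 kept to 8628 to 10682 normalized counts, whereas H19 ran between 6.36 and 81.7.

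The members also differed in how evenly they were expressed. The coefficient of variation of normalized counts over the 12 libraries was 92.8% for H19, 58.3% for Dlk1, 41.6% for Cdkn1c, 40.7% for Igf2, 27.8% for Ndn and 22.4% for Plagl1. It was 12.2% for Mest, 11.7% for Meg3, 11.4% for Grb10 and 5.5% for Peg3. Among genes within 0.5 log2 units of the same level, Igf2 stood at the 100th percentile of this coefficient (775 genes), Ndn at 99.8 (1263 genes) and H19 at 99.5 (1428 genes). Peg3 stood at 78.6 (435 genes) and Meg3 at 72.7, among 11 genes only. The WT female 2 library was the lowest of the 12 for 6 of the 10 members, namely Dlk1, Meg3, Peg3, Plagl1, Mest and Grb10.

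Several features of the libraries bear on these genes. Chd8 averaged 14.4% less in mutant than in WT libraries (log2 -0.22 ± 0.03 SE, limma adjusted p = 0.0289, exact two-sided permutation p = 0.005, the smallest that 400 arrangements within sex allow). Depth was 23721482 to 24654408 reads in mutant and 26912998 to 33327314 in WT libraries, so every mutant library was shallower than every WT library and depth and genotype cannot be told apart. The 8 pyramidal neuron markers were present in every library, with a summed level of 157866 to 188866 normalized counts. The 15 choroid plexus markers summed to 7049 to 238944 in mutant males, 213214 to 264587 in WT males, 88565 to 200611 in mutant females and 7428 to 248649 in WT females. As a score, the mean of log2(value + 1) over the markers, they set mutant male 2, mutant male 3 and WT female 1, at 5.46 to 6.03, apart from the other 9 libraries, at 9.50 to 11.2. The 16 fibroblast markers, which stand for connective tissue, summed to 4645 to 8958 in mutant males, 4712 to 9083 in WT males, 6030 to 17463 in mutant females and 3792 to 5040 in WT females. None of the fibroblast, choroid plexus or pan-neuronal markers was at 0 in any library. The 10 oligodendrocyte markers summed to 315355 to 437498 in mutant and 400176 to 511844 in WT libraries. In bulk tissue, fewer cells of a type and less RNA per cell cannot be told apart.

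By genotype, none of the 10 members passed the test in any comparison. Mutant minus WT over both sexes gave 0 of 10 members by limma, where 0.00572% of all tested genes were called. Within males 0 of 10 passed (0% of all genes), within females 0 of 10 (0%) and for the difference between the male and the female effect 0 of 10 (0%). Male minus female, averaged over the genotypes, also gave 0 of 10, where 0.0686% of all genes were called. edgeR and DESeq2 on recovered reads of 11 libraries called 0 members in each of these 5 comparisons, but DESeq2 gave no adjusted p for H19, Dlk1 and Cdkn1c over both sexes and in males. At an unadjusted limma p under 0.05 stood 1 member over both sexes (H19), beside 8.87% of all tested genes, and 1 in males (Cdkn1c), beside 10.3%. In females there were 2 (H19 and Igf2), beside 6.9%, for the difference between the sexes 2 (Igf2 and Cdkn1c), beside 7.85%, and for male minus female 0, beside 6.64%. The median log2 difference of the 10 members was 0.01 over both sexes, beside 0.00 for all tested genes.

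**Figure D2:**
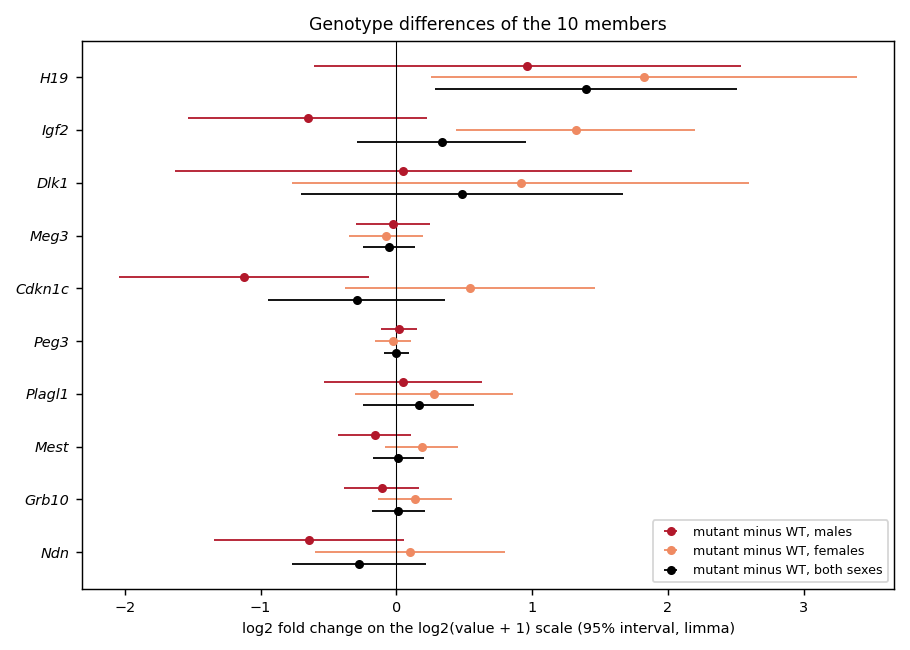
Log2 fold changes (horizontal axis, log2(value + 1) scale, mutant minus WT) of the 10 members in males, in females and over both sexes, with 95% intervals from limma. With all 12 libraries H19 stands at 1.83 in females and 0.96 in males, Igf2 at 1.32 in females and -0.65 in males, and Meg3, Peg3, Mest and Grb10 lie within 0.19 of 0.

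H19 (GRCm38 chr7:142575529-142578143, minus strand), a maternally expressed long non-coding RNA, was the member with the largest difference over both sexes when all 12 libraries were used, and it did not pass. Mutant males had 9.95, 81.7 and 41.3 normalized counts and WT males 21.8, 29.4 and 6.46. Mutant females had 20.3, 70.6 and 20.4, and WT females 6.36, 8.08 and 9.96. Every mutant female library lay above every WT female library, while the male groups overlapped. H19 was the 1 of 10 members whose groups did not overlap in females, where 10.8% of all tested genes did not overlap; in males 0 of 10 members did not overlap, beside 16% of all genes. The log2 difference was 1.83 ± 0.72 in females (limma adjusted p = 0.642) and 1.39 ± 0.51 over both sexes (adjusted p = 0.441). Without the 3 libraries low in choroid plexus markers, described above, it was 1.68 ± 0.64 in females, 0.51 ± 0.52 over both sexes and -0.66 ± 0.82 in males, where 1 mutant male library remains and is assumed to vary like the other groups. Over both sexes Dlk1, at 0.96 ± 0.53, and Ndn, at -0.73 ± 0.15, then had larger differences than H19, and none of the 3 passed (limma adjusted p = 0.665, 0.078 and 0.837 for Dlk1, Ndn and H19). Markers of connective tissue were also higher in mutant females: all 16 fibroblast markers had a positive difference there, with a median of 1.32 and 0 of 16 called. After the fibroblast score was added to the fit, the H19 difference was 0.03 ± 0.64 in females and 0.47 ± 0.40 over both sexes. Vascular wall markers, the 12 genes of pericytes and smooth muscle, summed to 8504 to 11266 in mutant males, 8036 to 8603 in WT males, 9042 to 15253 in mutant females and 8388 to 8920 in WT females.

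Igf2 (GRCm38 chr7:142650766-142666816, minus strand), which encodes a growth factor and ligand of the IGF1 receptor, had differences of opposite sign in the sexes, neither of which passed. Mutant males had 7899, 4968 and 3511 normalized counts, and WT males 9477, 8100 and 6985. Mutant females had 8881, 10739 and 7272, and WT females 1847, 3265 and 7361. Both pairs of groups overlapped, in females through WT female 3 alone. The log2 difference was -0.65 ± 0.40 in males (limma adjusted p = 0.609), 1.32 ± 0.40 in females (adjusted p = 0.584) and -1.97 ± 0.57 for males minus females (adjusted p = 0.619). All 15 choroid plexus markers differed in the same directions, with medians of -3.22 in males and 1.66 in females and none called. After the choroid plexus score was added to the fit, the Igf2 difference was 0.15 ± 0.28 in males and 0.92 ± 0.24 in females, and the sign in males was thus the opposite one. Igf2os, which overlaps an Igf2 exon on the opposite strand, averaged 30.6 normalized counts, and the library kit does not keep the strand.

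Cdkn1c (GRCm38 chr7:143458339-143461050, minus strand), the maternally expressed inhibitor of cyclin-dependent kinases, shared the Igf2 pattern. Mutant males had 484, 192 and 154 normalized counts and WT males 641, 484 and 483. Mutant females had 410, 373 and 440, and WT females 163, 249 and 539. The values under 200 were those of the 3 libraries low in choroid plexus markers. The log2 difference was -1.12 ± 0.42 in males (limma adjusted p = 0.443) and 0.54 ± 0.42 in females (adjusted p = 0.864). Without the 3 low libraries it was 0.15 ± 0.26 in females and -0.13 ± 0.32 in males, where the mutant arm is 1 library assumed to vary like the other groups. Grb10 (GRCm38 chr11:11930508-12038683, minus strand), which encodes an adaptor that dampens insulin and IGF receptor signalling, ran between 661 and 1030 normalized counts in all 12 libraries, with a log2 difference of 0.01 ± 0.09 over both sexes (limma adjusted p = 0.973).

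Dlk1 and Meg3 share a domain on chromosome 12, Dlk1 (GRCm38 chr12:109452823-109463336, plus strand) as the paternally expressed gene for a membrane protein related to Notch ligands and Meg3 (GRCm38 chr12:109541001-109571726, plus strand) as the maternally expressed long non-coding RNA. Dlk1 had 192, 88.5 and 310 normalized counts in mutant males, 371, 85.4 and 149 in WT males, 318, 130 and 200 in mutant females, and 333, 29.6 and 122 in WT females. In each group the lowest and highest Dlk1 values were at least 2.44-fold apart, and the groups overlapped. Meg3 had 101593, 104538 and 113343 in mutant males, 108857, 115254 and 101254 in WT males, 104732, 95424 and 101576 in mutant females, and 137964, 91389 and 94456 in WT females. The Meg3 value that stood out was that of WT female 1, and Rian, the next transcript of the same domain, was also highest there, at 22032 normalized counts against 14958 to 17844 in the other libraries. The log2 difference by genotype was -0.05 ± 0.09 for Meg3 and 0.48 ± 0.55 for Dlk1 (limma adjusted p = 0.895 and 0.836). Meg3 exons overlap Gm26906 on the opposite strand, and their reads could not be told apart.

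The remaining members are paternally expressed. Peg3 (GRCm38 chr7:6703892-6730431, minus strand), a zinc finger protein gene of neurons and embryonic tissues, averaged 10001 ± 217 normalized counts in mutant males and 9860 ± 238 in WT males, 9391 ± 246 in mutant females and 9588 ± 1034 in WT females (SD, n = 3 each). Its log2 difference over both sexes was 0.00 ± 0.04 with a 95% interval of -0.09 to 0.09, the narrowest of the set. Mest (GRCm38 chr6:30723547-30748465, plus strand), which encodes a protein of the alpha/beta hydrolase fold, had 679 ± 75.4 in mutant males, 759 ± 100.3 in WT males, 749 ± 44.7 in mutant females and 664 ± 114 in WT females, and its exons overlap Copg2 on the opposite strand. Plagl1 (GRCm38 chr10:13060504-13131694, plus strand), a zinc finger transcription factor gene, averaged 1235 ± 303 in mutant males, 1176 ± 108 in WT males, 1119 ± 75.2 in mutant females and 992 ± 441 in WT females. The wide Plagl1 spread in WT females came from 545 and 1427 normalized counts in WT female 2 and WT female 3. The log2 difference of Mest and Plagl1 was 0.01 ± 0.09 and 0.16 ± 0.19 (limma adjusted p = 0.974 and 0.840).

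Ndn (GRCm38 chr7:62346569-62350262, plus strand), which encodes a MAGE family protein of postmitotic neurons, was uneven between libraries. Mutant males had 1875, 3027 and 5711 normalized counts and WT males 4887, 4951 and 5127. Mutant females had 3097, 4824 and 5523, and WT females 3264, 4205 and 4881. The WT males kept within 1.05-fold, while the mutant males spanned 3.05-fold, and the groups overlapped in both sexes. The log2 difference was -0.65 ± 0.32 in males (limma adjusted p = 0.515) and 0.10 ± 0.32 in females (adjusted p = 0.977). Without the 3 libraries low in choroid plexus markers it was -1.41 ± 0.23 in males (limma adjusted p = 0.0907), where the mutant arm is again 1 library, the one with the lowest Ndn value. Magel2, another MAGE family gene of the same chromosome 7 domain, had 191 normalized counts in mutant male 1, against 52.1 to 112 in the other 11 libraries. The lowest Ndn library was the highest Magel2 library. Mutant male 1 was also the highest library for genes outside this domain. These were Usp29 and Zim1 of the Peg3 domain, at 1367 and 221 normalized counts, and the members Plagl1 and Grb10. Mutant male 2, the next lowest in Ndn, had 80.6 normalized counts of Magel2.

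Of the 10 members, H19 had the highest correlation with the fibroblast score over the 12 libraries. Its Pearson r with the vascular wall score was as high, but its Spearman rho, and r without the 2 farthest libraries, were lower there. The slope of a gene on a marker score is the change in its log2 level per unit of score within the 4 groups. On the fibroblast score, 0 of 10 members passed in limma, where 0.737% of all tested genes did, all of them upward; DESeq2 called 1 member, H19, edgeR 0, and 1 member stood at an unadjusted limma p under 0.05, beside 5.53% of all tested genes. The H19 slope was 1.34 ± 0.32 (limma adjusted p = 0.136, DESeq2 adjusted p = 0.0474), beside 1.13 ± 0.07 for Col3a1, a collagen gene of the score itself. Over the 12 libraries, H19 had a Pearson r of 0.82 with the fibroblast score (permutation p = 0.0013, adjusted p = 0.00975 over 30 relations) and a Spearman rho of 0.83 (adjusted p = 0.017). Without the 2 libraries farthest from the median score, mutant females 1 and 2, r was 0.87, and for deviations from group means it was 0.80. With the score of the 12 pericyte and smooth muscle genes, a relation added after the data were seen, H19 had an r of 0.83 (permutation adjusted p = 0.0055 over 40 relations) and a rho of 0.68 (adjusted p = 0.124), and without mutant female 2 and mutant male 2, the 2 libraries farthest from the median of that score, r was 0.65. The fibroblast and vascular wall scores had an r of 0.79 with each other, so the H19 relation to one is not separate from the other. Igf2 had a slope of 0.20 ± 0.28 (limma adjusted p = 0.998) and an r of 0.53 (permutation p = 0.0767, adjusted p = 0.192). Its rho was 0.64 (permutation adjusted p = 0.117). Within the 9 libraries not low in choroid plexus markers, the Igf2 r was 0.70 and rho 0.87 (exact permutation adjusted p = 0.195 and 0.0676). With the fibroblast and choroid plexus scores in 1 fit, the Igf2 slope on the fibroblast score was 0.52 ± 0.08 (limma adjusted p = 0.00553). That of H19 was 1.23 ± 0.32 (limma adjusted p = 0.125). Slopes of the other 8 members on the fibroblast score ran from -0.18 to 0.07.

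**Figure D3:**
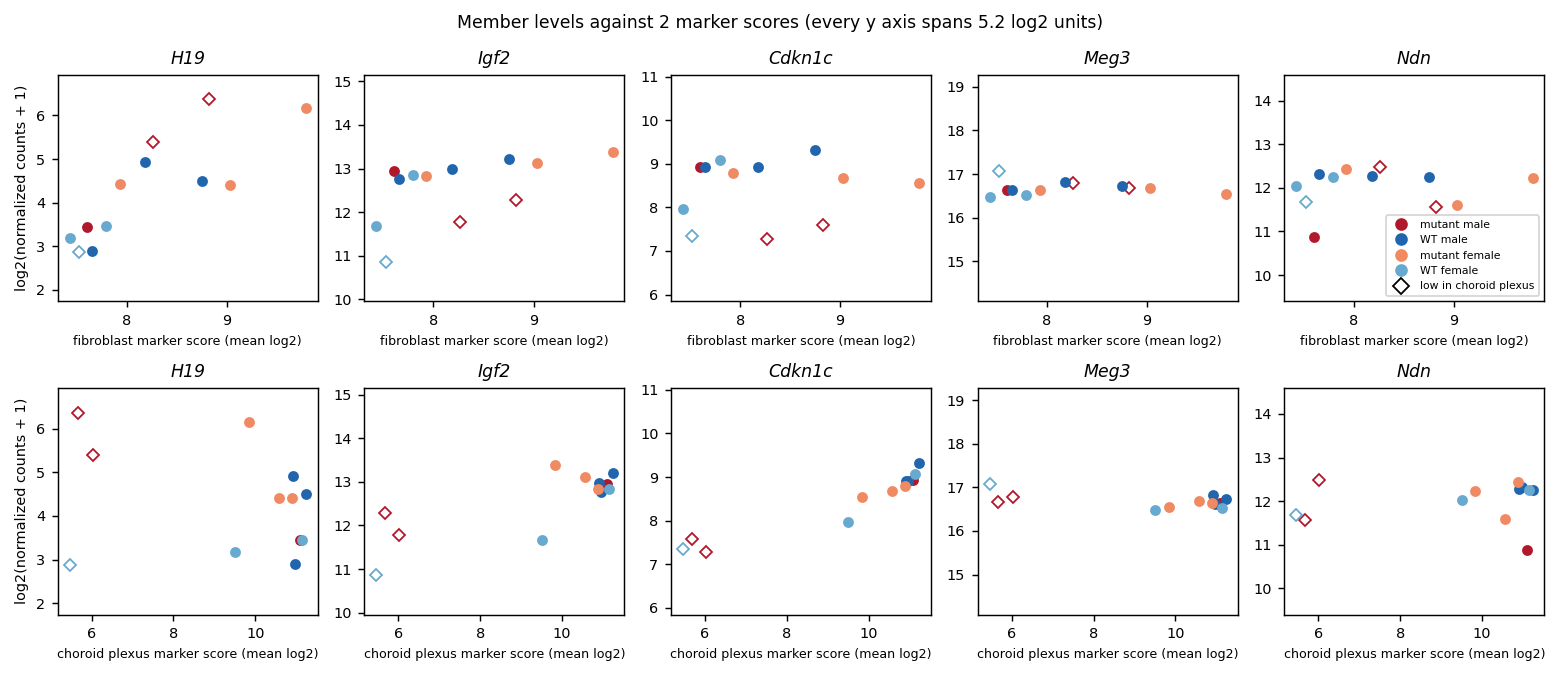
Level of H19, Igf2, Cdkn1c, Meg3 and Ndn (vertical axes, log2(normalized counts + 1), each spanning 5.2 units) against the fibroblast score (top) and the choroid plexus score (bottom) in 12 libraries; open diamonds mark the 3 libraries low in choroid plexus markers. H19 climbs along the fibroblast score with a slope of 1.34, Cdkn1c along the choroid plexus score with 0.28, and Meg3 is flat on the fibroblast score.

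Over the 12 libraries, Cdkn1c and Igf2 followed the choroid plexus score. Within the 9 libraries not low in choroid plexus markers, the Cdkn1c correlation passed and that of Igf2 did not. On the choroid plexus score 2 of 10 members passed in limma, both upward, where 5.03% of all tested genes passed in either direction; edgeR and DESeq2 also called 2. The slope was 0.28 ± 0.03 for Cdkn1c (limma adjusted p = 9.27e-05) and 0.23 ± 0.05 for Igf2 (adjusted p = 0.00957), beside 1.73 ± 0.05 for Ttr, the transthyretin gene that belongs to the score. All 10 markers of ependyma, the lining of the ventricles, also had positive slopes on this score, and limma called 5 of them. Ependyma scores were at most 7.28 in the 3 low libraries and at least 7.31 in the other 9. Over the 12 libraries, choroid plexus and ependyma content were therefore not separated. Within the other 9 the scores ranked the libraries differently. WT female 2, the lowest of the 9 on the choroid plexus score at 9.50, had an ependyma score of 7.80. Mutant female 1, at 10.57 on the choroid plexus score, had the lowest ependyma score of the 9, 7.31. Since the 3 low libraries stood apart, correlations were taken within the other 9. There Cdkn1c had an r of 0.93 (exact permutation p = 8.27e-06, adjusted p = 0.000248) and a rho of 0.98 (adjusted p = 0.00149), and its slope was 0.56 ± 0.09 (limma adjusted p = 0.0132). Igf2 had an r of 0.48 within the 9 libraries (exact permutation p = 0.2, adjusted p = 0.428). Its slope there was 0.37 ± 0.18, no smaller than the 0.23 ± 0.05 over 12 libraries but with a larger SE. Whether Igf2 follows the score within the 9 libraries is therefore not settled. Leaving out WT female 1 alone gave Igf2 a slope of 0.19 ± 0.06 (limma adjusted p = 0.133), and leaving out WT female 3 gave 0.17 ± 0.04 (adjusted p = 0.0502).

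Peg3 and Mest also correlated with the choroid plexus score within the 9 libraries. Peg3 had an r of 0.85 (exact permutation adjusted p = 0.0108) and Mest 0.80 (adjusted p = 0.0355), with Spearman adjusted p-values of 0.117 and 0.13. Without mutant female 2 and WT female 2, the libraries farthest from the median score, r was 0.68 for Peg3 and 0.54 for Mest, against 0.89 for Cdkn1c. The slopes of Peg3 and Mest over 12 libraries were -0.01 ± 0.01 and 0.05 ± 0.02 (limma adjusted p = 0.591 and 0.213). Without WT female 2 the slopes of Plagl1 (0.09, limma adjusted p = 0.00568) and Mest (0.06, adjusted p = 0.0445) were called. Leaving out WT female 1 gave a call for Grb10 (0.08, limma adjusted p = 0.0128), and leaving out mutant male 1 gave one for Meg3 (-0.10, adjusted p = 0.0485). With all 12 libraries the slope was 0.01 ± 0.02 for Grb10, 0.07 ± 0.05 for Plagl1 and -0.06 ± 0.02 for Meg3 (limma adjusted p = 0.818, 0.529 and 0.11). H19 had a negative slope of -0.22 ± 0.13 (limma adjusted p = 0.407).

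**Figure D4:**
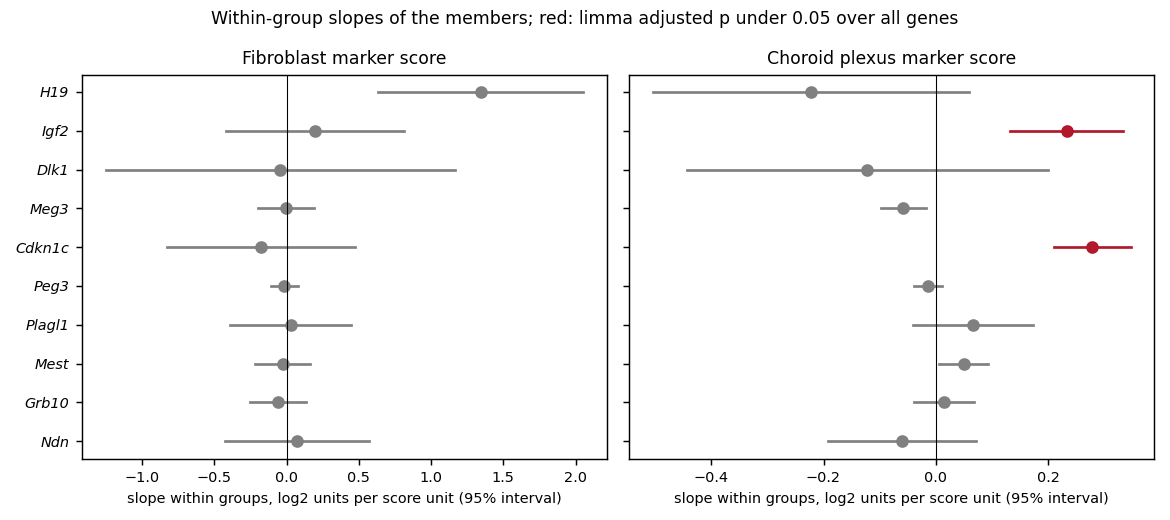
Slopes of the 10 members on the fibroblast score (left) and the choroid plexus score (right), in log2 units per unit of score within groups (horizontal axes, which differ in range), with 95% intervals; red marks a limma adjusted p under 0.05 over all genes. Igf2 at 0.23 and Cdkn1c at 0.28 on the choroid plexus score are red, and H19 at 1.34 on the fibroblast score is not.

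Neuronal content could be tested only over a narrow range, since the score of 14 pan-neuronal markers ran from 13.26 to 13.44, a range of 0.18 log2 units. On this score 1 of 10 members passed in limma, where 1.23% of all tested genes passed; edgeR and DESeq2 also called 1, and DESeq2 gave no adjusted p for H19. The member was Igf2, downward, with a slope of -11.2 ± 1.22 (limma adjusted p = 0.00516). The pan-neuronal score itself had an r of -0.81 with the choroid plexus score over the 12 libraries, so a slope on one is not separate from the other. Of the members named as neuronal, Meg3 had a slope of 2.51 ± 0.77 (limma adjusted p = 0.118), Peg3 0.72 ± 0.47 (adjusted p = 0.49) and Ndn -0.33 ± 2.76 (adjusted p = 0.969). Without the 3 libraries low in choroid plexus markers, the Meg3 slope was -0.29 ± 0.78 and that of Peg3 -0.72 ± 0.54, both with the opposite sign. Leaving out WT male 3 alone gave a call for Meg3 (3.04, limma adjusted p = 0.0453), and leaving out mutant female 2 gave one for Cdkn1c (-11.2, adjusted p = 0.035). Over the 12 libraries the r with the pan-neuronal score was 0.54 for Meg3 (permutation p = 0.0693, adjusted p = 0.189), 0.33 for Peg3 (adjusted p = 0.542) and -0.29 for Ndn (adjusted p = 0.637). It was -0.86 for Igf2 and -0.85 for Cdkn1c (permutation adjusted p = 0.0027 for both). Without the 3 low libraries r was -0.57 for Igf2 and -0.60 for Cdkn1c (exact permutation adjusted p = 0.217 for both), and no member was called on this score.

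The genes whose pattern was most like each member, by Pearson r of log2(value + 1) over the 12 libraries among all tested genes with a symbol, are given as a description. For H19 they were Fbln5, Eln and Wnt5a (r = 0.92, 0.92 and 0.91), of which Fbln5 and Eln encode elastic fibre proteins. For Igf2 they were Angptl2, Slc13a4 and Slc16a12 (0.99, 0.98 and 0.97), and Slc13a4, an anion transporter gene, is one of the 15 choroid plexus markers. Slc13a4 differed from the other 14 markers: its slope on the score, 0.29 ± 0.04, was the smallest of the 15, and its genotype difference over both sexes, 0.22 ± 0.33, was the one positive value. For Cdkn1c they were Trpm3, Acaa2 and Cd164, each at 0.99. For Meg3 they were Snhg11, Vwc2l and Garnl3 (0.97, 0.96 and 0.95), and Snhg11 is a long non-coding RNA known from neurons. For Dlk1 they were Ache, 3632454L22Rik and Efna5 (0.93, 0.91 and 0.90), and Ache, the acetylcholinesterase gene, reached 0.99 in the 9 libraries not low in choroid plexus. For Ndn they were Mrgprc2-ps, Psme2b and Best1 (0.92, 0.91 and 0.89), each with a mean under 40 normalized counts. For Peg3 the highest was Edem3 (0.89), followed by Rit2 and Mtmr4. For Plagl1 the highest was Vgll3 (0.92), followed by Car10 and Cpne2. For Mest the highest was Pcsk4 (0.95), followed by Wdr35 and Fbxo33. For Grb10 the highest was Rab36 (0.93), followed by Syt9 and Pfkp. Among the members themselves the highest r was 0.84, for Igf2 with Cdkn1c, followed by 0.82 for Cdkn1c with Mest and 0.81 for Meg3 with Peg3. In the 9 libraries not low in choroid plexus markers the order differed: r was 0.68 for Igf2 with Cdkn1c, and the highest values were 0.89 for Peg3 with Grb10 and 0.89 for Dlk1 with Mest.

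Neighbouring genes of the same imprinted domains and genes of the IGF and cell cycle pathways were listed as 12 sets, and by limma none of their tested genes passed by genotype in any comparison. Within the H19 and Igf2 domain, 3 of 6 listed genes were tested, and the insulin gene Ins2 followed the choroid plexus score with a slope of 0.72 ± 0.07 (limma adjusted p = 1.8e-05). Ins2 had 29.8, 0 and 1.09 normalized counts in mutant males, 30.6, 30.4 and 28.2 in WT males, 21.4, 16.3 and 28.3 in mutant females, and 0.91, 9.87 and 17.4 in WT females. The libraries at or near 0 were the 3 low in choroid plexus markers. Of 19 tested genes of IGF signalling, 2 rose with the choroid plexus score, where 5.03% of all tested genes passed, the binding protein genes Igfbp2 (0.36 ± 0.04, limma adjusted p = 2.27e-05) and Igfbp7 (0.13 ± 0.02, adjusted p = 0.00165), and both fell with the pan-neuronal score (limma adjusted p = 0.0313 for Igfbp2 and 0.0226 for Igfbp7). Igf1, the sister ligand of Igf2, rose with the fibroblast score (0.50 ± 0.07, limma adjusted p = 0.00541) and had a genotype difference of 0.43 ± 0.16 over both sexes (adjusted p = 0.469). In the Dlk1 domain 1 of 7 tested genes passed, beside 1.23% of all tested genes, Rian, which rose with the pan-neuronal score (2.495 ± 0.512, limma adjusted p = 0.0451). Phactr2, next to Plagl1, rose with the choroid plexus score (0.11 ± 0.02, limma adjusted p = 0.00375), and Snhg14 of the Ndn and Snrpn domain (-0.05 ± 0.01, adjusted p = 0.0139) and Peg13 of the other imprinted genes (-0.04 ± 0.01, adjusted p = 0.0388) fell with it. Of 10 tested cyclin, kinase and CIP/KIP inhibitor genes 1 passed, beside 5.03% of all genes: Ccnd2, for cyclin D2, rose with the choroid plexus score (0.06 ± 0.01, limma adjusted p = 0.0278).

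**Figure D5:**
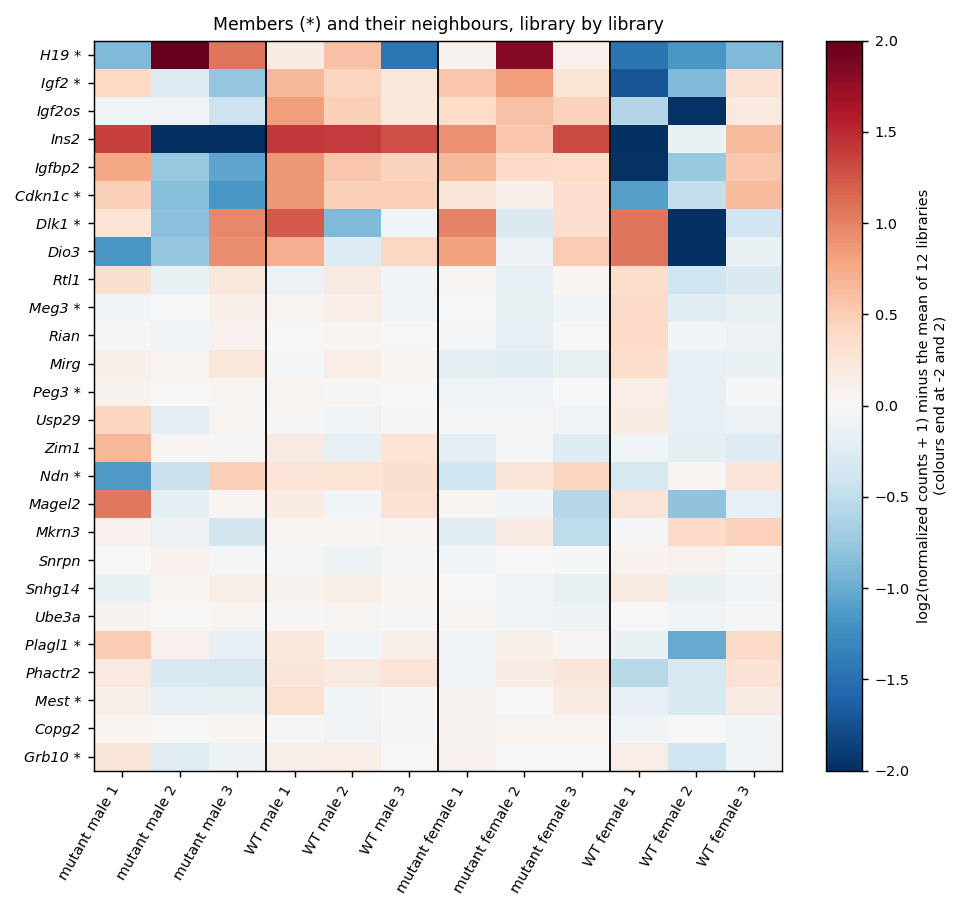
Members (asterisks) and their neighbours by domain (rows) in the 12 libraries (columns, by group): colour gives log2(normalized counts + 1) minus the mean of the 12 libraries, with colours ending at -2 and 2. Igf2, Ins2, Igfbp2 and Cdkn1c are blue in mutant males 2 and 3 and WT female 1, the 3 libraries low in choroid plexus markers. Igf2, Igfbp2 and Cdkn1c are also blue in WT female 2, which had 3265 normalized counts of Igf2 against 4968 in mutant male 2. The choroid plexus score of WT female 2, 9.50, was the lowest of the other 9 libraries. H19 is dark red in mutant male 2 and mutant female 2, and the Peg3 row is nearly white.

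In the other lists no gene passed on any score, and the genes with the largest genotype differences are given as values. Over both sexes, mutant minus WT was 0.08 ± 0.02 for Copg2 and -0.08 ± 0.11 for Cep41 beside Mest, and 0.07 ± 0.13 for Zfp78 and 0.07 ± 0.12 for Zim1 beside Peg3. It was 0.18 ± 0.22 for Fignl1 and -0.17 ± 0.25 for Cobl beside Grb10, and 0.23 ± 0.36 for Slc22a18 and -0.17 ± 0.16 for Kcnq1 beside Cdkn1c. Of 10 tested genes that maintain imprints, Uhrf1 was at -0.15 ± 0.12 and Zfp57, the zinc finger protein that protects methylated imprints, at 0.15 ± 0.07. The adjusted limma p-values of these 10 genes were at least 0.316.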

How the data were processed

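Hippocampal RNA was sequenced in 12 libraries of 4 groups, taken from the sample titles. Per the submitters' processing notes, Trimmomatic 0.35, TopHat2 2.1.0, HTSeq, DESeq2 and the build GRCm38 were used, with no roles given. Per the labels' protocols the kit was TruSeq RNA Sample Prep Kit v2, which keeps no strand. The deposited values are a signal per gene that the authors made by dividing read counts by 1 factor per library. The values themselves show it, being within a library whole multiples of 1 step (0.807 to 1.13 normalized counts per read; 100% came out whole within 1e-06 reads). In WT male 1 the values were also whole multiples of a step, 0.989. A step this close to 1 was treated as undecided, so the recovery of its reads was not taken as verified. The lowest WT depth given above, 26912998 reads, is that of this library. edgeR 4.0.16 and DESeq2 1.42.0 therefore ran on the recovered reads of the other 11 libraries, with 2 WT males, as alternatives only. Columns of other samples numbered 0.

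Values were transformed as log2(value + 1), so fold changes of low genes are understated, and limma 3.58.1 (R 4.3.3) modelled the 4 group means with a trend in the variance, using every library. Only genes averaging 10 or more normalized counts entered, and p-values were adjusted by the Benjamini-Hochberg method over 17496 genes at 0.05. Slopes added 1 marker score (mean log2 of its genes) to that fit. Correlations used 100000 resamples over 12 libraries and all 362880 arrangements over 9, with 30 relations adjusted together. On simulated reads of these genes, 82% of 100 genes changed by 1 log2 unit between the genotypes were called. Of those changed by 2 log2 units 100% were called, with 0.0463% of unchanged genes. Simulated spread was set by gene level alone, without differences in tissue content between libraries. These shares therefore do not apply to members as variable as H19, Dlk1, Cdkn1c, Igf2, Ndn and Plagl1. Positions and exon lengths are from GENCODE M21 on GRCm38, and 45229 of 46078 IDs had a symbol. Within groups, chi-square per degree of freedom between libraries was 3.38 to 30, so none was a duplicate. Precision at low levels is that of read counting.

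The 10 members, the marker and domain lists, the tests and the alternatives were chosen with earlier results of these data known. The genes named are the members, the 3 tested genes most correlated with each, and of each domain or pathway list those past the threshold or, failing that, the 2 with the largest genotype difference, with Chd8, Ttr and Col3a1 as checks. Igfbp2, Ins2 and Magel2 library values, and list members beyond this rule in the picture of domains, were added as context.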

Additional observations from a re-analysis of the deposited data

How the results depend on the processing

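Members called by genotype or sex were 0 of 10 under all 23 alternatives of each comparison, with other scaling factors, a pseudocount of 5, no filter, a minimum mean of 50, edgeR, DESeq2, either score as a covariate, the replicate block and each library left out. For the fibroblast score, 0 members became 1 with DESeq2 (H19), 1 without group terms (H19) and 1 with both scores in the fit (Igf2). For the choroid plexus score, 2 became 1 without the 3 libraries low in choroid plexus markers, and leaving out 1 library at a time gave 1 (without WT female 3) to 4 (without WT female 2). For the pan-neuronal score, 1 became 2 without group terms and 0 without the 3 low libraries. Leaving out 1 library at a time gave 0 (without WT female 1 or WT female 3) to 2 (without WT male 3 or mutant female 2). Of 30 correlations 6 passed, and 3 without the 3 low libraries. The choroid plexus relations used the same 9 libraries both times. For Mest on that score only the adjustment changed (exact permutation p = 0.0071, adjusted p = 0.0355 against 0.0533). With the vascular wall score, added after seeing the data, 7 of 40 passed. The causes of the other changes were not tested, but fits without 3 libraries have fewer degrees of freedom. Over single members 1822 values were compared: 1688 stayed within 1 SE or kept their call, 116 moved further, 12 gained a call and 6 lost one. The sign differed for 144 of the 1822, of which 0 were called in either fit. Among these were H19 in males (0.96 against -0.66 without the 3 low libraries), Igf2 in males (-0.65 against 0.15 with the choroid plexus score) and Dlk1 on the pan-neuronal score (6.92 against -9.46 without the 3 low libraries).

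Over all genes, the genotype count over both sexes was 1, against 32 with DESeq2 and 82 without the 3 low libraries; within males it was 0, against 10 with DESeq2, and within females 0, against 1. Male minus female was 12, against 39 with DESeq2. The fibroblast slope count was 129, with alternatives from 20 to 254, the choroid plexus count 880, from 191 to 1221, and the pan-neuronal count 216, from 0 to 1117.

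Replicate numbers did not pair the libraries: of 18 same-numbered pairs, 4 had deviations correlated above 0.1, and 3 of 12 libraries correlated best with their own number. With the number as a block, 0 members were called on the fibroblast score, 3 on the choroid plexus score and 2 on the pan-neuronal score. H19, with a mean of 27.2 normalized counts, has no value at a minimum mean of 50. Its few reads, 3 libraries a group, and a neuronal score that hardly varied limit what could be detected.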

Other observations

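Further imprinted genes, given as values, also did not differ by genotype in limma over all genes. Over both sexes mutant minus WT was -0.38 ± 0.13 for Airn, the antisense transcript of the Igf2r domain (adjusted p = 0.417), and 0.28 ± 0.26 for Slc38a4, a paternally expressed amino acid transporter gene (adjusted p = 0.802). These were the 2 largest of 23 tested genes outside the members' domains, of which 13 had a positive and 10 a negative difference. In the Ndn domain, Mkrn3 was at -0.32 ± 0.13 (adjusted p = 0.507) and Magel2 at 0.11 ± 0.23. In the H19 and Igf2 domain, Ins2 was at -0.65 ± 0.75 and Lsp1 at 0.34 ± 0.16. In the Dlk1 domain, Rtl1, a gene derived from a retrotransposon, was at 0.11 ± 0.13 and Rian at -0.08 ± 0.07. Beside Plagl1, Aig1 was at -0.08 ± 0.04 and Sf3b5 at 0.08 ± 0.05. In IGF signalling, Igfbp6 was at 0.41 ± 0.17 (adjusted p = 0.501), and among cell cycle genes Ccna2 was at -0.10 ± 0.11 and Cdk6 at 0.10 ± 0.09.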
